A study of Homo sapiens with 9 samples.

Results

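HA-tagged CIC::DUX4, a fusion oncoprotein found in CIC-rearranged sarcoma, was compared with empty vector in 293T cells by RNA sequencing. 293T (HEK293T) is a transformed human embryonic kidney line. The comparison rests on 6 of the 9 libraries of the series, 3 that received the HA-CIC::DUX4 plasmid and 3 that received the plasmid with no insert, and on the 17576 of 62700 genes in the count table that passed an abundance filter. The other 3 libraries received a CIC::NUTM1 plasmid. Here they entered the abundance filter, the scaling and the estimate of the spread between replicates, but not the comparison itself. All cells were grown under the same conditions and reverse transfected with Fugene 6, the replicates on different days, and polyA RNA was taken roughly 48 h afterwards. The fusion was thus present as a transient plasmid product in a line that is not a sarcoma, and the share of cells that took it up is not known here. In such bulk libraries, fewer cells with a transcript and less of it per cell cannot be told apart. The transcripts of the fused genes were not analysed here.

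CIC (capicua) is an HMG-box transcription factor that binds short TGAATGAA-like octamers and represses the genes beside them. Growth factor signals acting through the kinase ERK relieve this repression, so that many CIC targets are genes that ERK signalling switches on, such as the ETS factors ETV1, ETV4 and ETV5 and the feedback inhibitors of the SPRY, SPRED and DUSP families. In CIC::DUX4 the DNA-binding part of CIC is joined to the end of DUX4, which recruits coactivators, and the product activates genes that CIC would repress.

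With CIC::DUX4, 1224 of the 17576 genes tested were called higher (6.96%) and 224 were called lower (1.27%), 8.24% in either direction (edgeR quasi-likelihood test, Benjamini-Hochberg adjusted p under 0.05). Every share of a gene group given below can be read against these percentages. The increases were large and the decreases small. The median log2 fold change was 1.18 among genes called higher, with quartiles of 0.53 and 3.29, and -0.34 among genes called lower, with quartiles of -0.47 and -0.27. The fitted change reached a size of 1 on the log2 scale in 672 of the genes called higher and in 1 of those called lower, HSPB8, a small heat shock protein gene. In 25.7% of all genes tested the 3 libraries of one group lay wholly above the 3 of the other, 14.8% with CIC::DUX4 above and 11% with it below. The groups lay apart in this way in 1200 of the 1224 genes called higher (98.0%) and 223 of the 224 called lower (99.6%). Such separation in a called gene thus adds little to its call.

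Calls differed with the level of a gene in empty vector. Of the 236 tested genes with 3 counts or fewer in each empty vector library, 204 were called higher. These genes could pass the filter only through a fusion group, so this share is a description of the filter as much as of the cells. Between 1 and 10 CPM (counts scaled to library size) in empty vector, 258 of 4406 genes were called higher (5.86%) and 12 lower (0.272%). Above 100 CPM the 2 directions were alike in number, 74 higher (3.04%) and 77 lower (3.17%) of 2431 genes. The largest increases above 100 CPM were those of POLE, the catalytic subunit of DNA polymerase epsilon, and PTPN1, a tyrosine phosphatase. Protein-coding genes were called higher in 1062 of 13826 cases (7.68%), antisense RNAs in 50 of 1269 (3.94%), other long noncoding RNAs in 69 of 1181 (5.84%) and pseudogenes in 17 of 708 (2.40%).

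**Figure D1:**
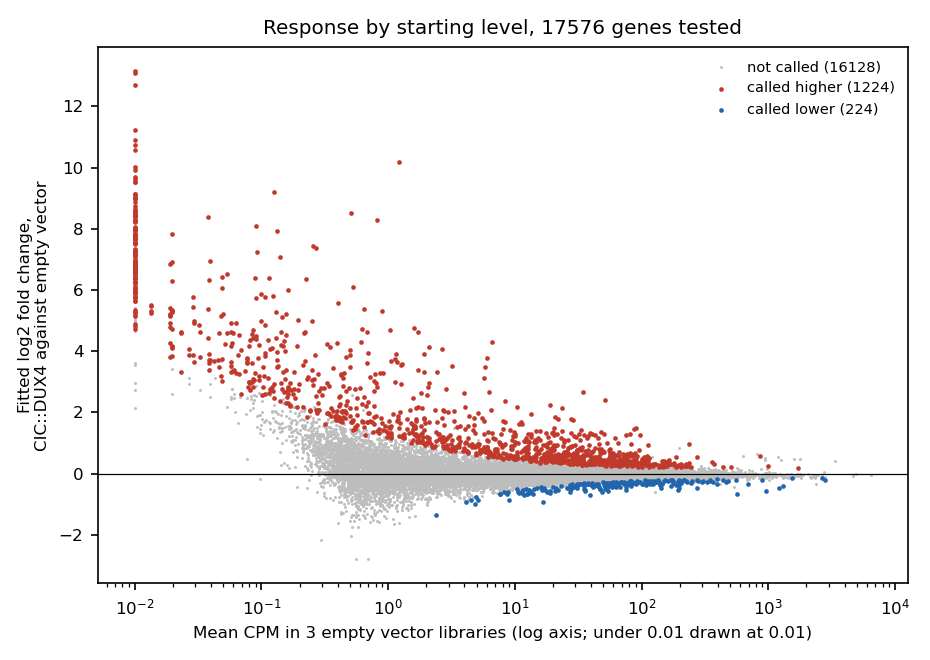
Fitted log2 fold change (CIC::DUX4 against empty vector, vertical axis) against the mean CPM in 3 empty vector libraries (log axis), 1 point per tested gene, red for the 1224 called higher, blue for the 224 called lower and grey for the rest. The red points reach furthest at the left, where genes were near 0 in empty vector, and the blue points lie close to the zero line, apart from HSPB8 at -1.35.

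The 9 libraries held 16970771 to 33655445 counts, so that 3 counts correspond to 0.0878 to 0.180 CPM. In the empty vector libraries the range was 0.0878 to 0.172 CPM. Within groups the Pearson correlation of log2 CPM was 0.982 to 0.988. CIC::DUX4 replicate 1 was the highest of its group in 922 of the 1224 genes called higher (75.3%) and the lowest in 143 of the 224 called lower (63.8%), against 33.0% and 33.4% among genes not called. Without it, 805 genes were called higher and 60 lower. Without empty vector replicate 3, 954 were higher and 75 lower, and without empty vector replicate 2, 1038 and 137. Mitochondrially encoded genes took 1.89% to 2.14% of counts in CIC::DUX4 and 1.20% to 1.72% in empty vector. All 11 markers of 293T cells were above 1 CPM in empty vector, among them KRT18, VIM, PAX2 and WT1. Their summed level was 1410 to 1603 CPM with empty vector and 1330 to 1374 CPM with CIC::DUX4, with EYA1 and KRT8 called higher and NEFL and NEFM lower. The summed level of 5 endothelial markers was 1.76 to 7.82 CPM with CIC::DUX4 and 0.481 to 0.966 with empty vector. KDR, the receptor of VEGF, gave 6.87 CPM of it in CIC::DUX4 replicate 1 and was not called. The sums of 6 fibroblast markers (40.2 to 44.8 CPM against 40.6 to 43.7), 6 leukocyte markers (2.20 to 3.01 against 1.20 to 3.37) and 5 skeletal muscle markers (4.22 to 5.84 against 4.69 to 5.56) overlapped between the groups, though LUM (fibroblast) and PTPRC (leukocyte) were called higher, at 2.66 against 5.49 CPM and 0.0195 against 0.412 CPM. The muscle factor MYOG had no count in any of the 6 libraries. The part of these differences in the results below was not tested.

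Octamers that CIC is known to bind, TGAATGAA and TGAATGGA on either strand, were searched in RefSeq promoter windows (GRCh38.p14) of 300 bases, 250 before and 50 after each annotated start. Windows were at hand for 12204 of the 17576 genes tested. Of 1429 windows of genes called higher, 83 held an octamer (5.81%), against 248 of 16067 windows of genes not called (1.54%), 4 of 247 windows of genes called lower (1.62%) and 922 of all 35116 windows in the table (2.63%). The share was 6.79% (48 of 707) where the increase was at least 1 on the log2 scale and 4.85% (35 of 722) where it was smaller. Counted by gene, 79 of 888 genes called higher (8.90%) and 236 of 11152 genes not called (2.12%) had a window with an octamer. Most genes called higher therefore had no exact octamer in these windows, and the rest of the genome was not searched. The groups were not matched for level. The median in empty vector was 4.86 CPM among genes called higher and 16.9 CPM over all genes tested. Over the windows of genes tested the share was 1.89% (335 of 17743), below that of the whole table. The part of level in these shares was not tested.

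**Figure D2:**
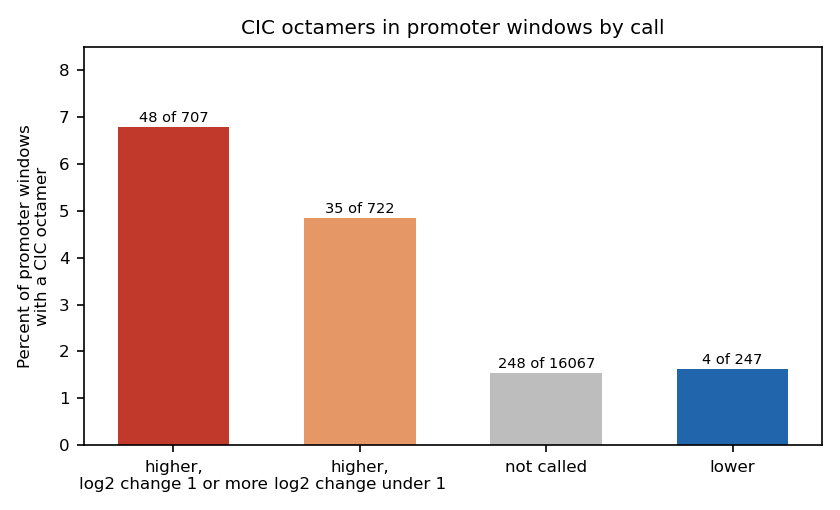
Share of promoter windows with at least 1 CIC octamer on either strand (percent, vertical axis) for genes grouped by call, with the number of windows above each bar. The bars stand at 6.79% and 4.85% for genes called higher, 1.54% for genes not called and 1.62% for genes called lower.

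The 250 bases before the start are shown for 6 genes called higher whose windows held octamers before the start and which recur in the groups described below. They read 5′ to 3′ on the strand of the gene, and capitals mark the octamers or their reverse complements TTCATTCA and TCCATTCA. The VGF window (chr7:101165570-101165819, minus strand) held 6 matches, 5 of which overlap in a single TTCA repeat and lie 227 to 243 bases before the start, and a separate octamer 90 bases before it. The AP1M2 window (chr19:10587313-10587562, minus strand) held 3, of which TGAATGAA and TGAATGGA overlap. SPRED3 (chr19:38389541-38389790, plus strand), ETV1 (chr7:13991426-13991675, minus strand), EPHA2 (chr1:16156070-16156319, minus strand) and VCAN (chr5:83471494-83471743, plus strand) held 1 each, at 192, 125, 34 and 98 bases before the start. A match is a description of the sequence and shows no binding.
VGF: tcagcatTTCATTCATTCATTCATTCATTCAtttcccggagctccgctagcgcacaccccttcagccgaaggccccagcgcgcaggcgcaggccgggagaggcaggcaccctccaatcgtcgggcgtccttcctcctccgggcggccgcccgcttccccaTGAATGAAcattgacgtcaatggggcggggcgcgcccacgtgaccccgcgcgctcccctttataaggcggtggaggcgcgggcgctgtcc
AP1M2: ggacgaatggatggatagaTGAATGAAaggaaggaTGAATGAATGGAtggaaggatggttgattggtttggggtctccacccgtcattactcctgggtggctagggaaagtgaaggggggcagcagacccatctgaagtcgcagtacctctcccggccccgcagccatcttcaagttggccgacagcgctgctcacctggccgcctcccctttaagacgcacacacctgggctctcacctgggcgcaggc
SPRED3: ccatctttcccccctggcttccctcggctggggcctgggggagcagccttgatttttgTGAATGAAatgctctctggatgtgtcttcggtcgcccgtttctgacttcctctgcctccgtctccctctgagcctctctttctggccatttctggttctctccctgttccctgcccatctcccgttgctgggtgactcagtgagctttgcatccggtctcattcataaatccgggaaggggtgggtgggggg
ETV1: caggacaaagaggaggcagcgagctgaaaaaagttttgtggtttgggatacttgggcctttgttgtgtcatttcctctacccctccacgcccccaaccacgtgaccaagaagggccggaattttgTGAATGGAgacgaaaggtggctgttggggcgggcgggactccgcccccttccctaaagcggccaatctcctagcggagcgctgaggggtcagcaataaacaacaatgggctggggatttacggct
EPHA2: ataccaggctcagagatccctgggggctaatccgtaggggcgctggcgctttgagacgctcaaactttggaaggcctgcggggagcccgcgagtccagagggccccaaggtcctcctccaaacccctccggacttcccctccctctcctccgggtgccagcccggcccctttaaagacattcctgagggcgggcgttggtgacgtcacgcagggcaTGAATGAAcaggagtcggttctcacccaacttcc
VCAN: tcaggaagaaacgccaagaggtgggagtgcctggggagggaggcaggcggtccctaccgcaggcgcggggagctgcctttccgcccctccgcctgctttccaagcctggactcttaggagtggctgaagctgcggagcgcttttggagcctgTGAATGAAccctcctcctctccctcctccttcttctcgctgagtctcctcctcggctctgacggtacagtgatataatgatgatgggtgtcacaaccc

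In the same fit, 98 lists of genes by function or family were counted. They range from lists in which most tested members rose to lists in which none was called, and no list was tested as a set. Lists with members near 0 in empty vector carry the filter effect described above, and for the lists with most such members their number is given. Of the called members, 2 of the 12 potassium channels, 2 of the 6 protein tyrosine phosphatases, 1 of the 8 receptor tyrosine kinases, 1 of the 7 granule genes and 1 of the 11 ETS and feedback genes were such genes.

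**Figure D3:**
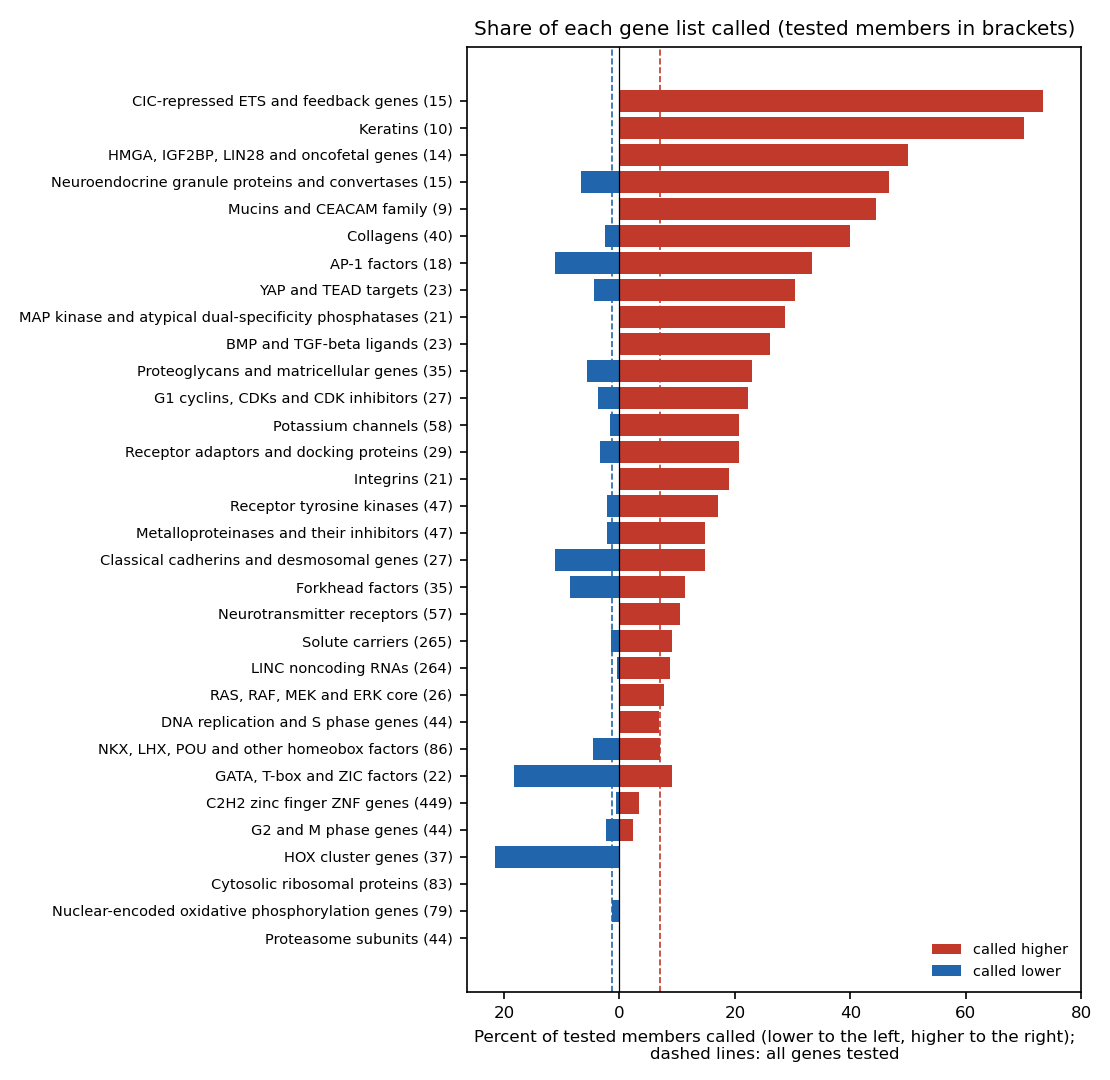
Percent of the tested members of 32 gene lists called higher (red, to the right) or lower (blue, to the left), with the number tested in brackets and dashed lines at the shares over all genes, 6.96% higher and 1.27% lower. The feedback genes, keratins, oncofetal genes, neuroendocrine genes, mucins and collagens stand at 40% or more called higher, HOX genes and GATA, T-box and ZIC factors reach furthest to the left, and ribosomal protein and proteasome lists have no bar. Of the 10 tested keratins 5 and of the 9 tested mucins 5 were at 3 counts or fewer in every empty vector library.

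The ETS and feedback genes that CIC represses in normal cells rose in 11 of 15 cases (median log2 fold change 2.19, against -0.001 over all genes tested). This list is made of known CIC targets, and most of them were already known to respond in these libraries. ETV5, an ETS transcription factor, stood at 1.14, 0.849 and 0.441 CPM in empty vector replicates 1 to 3 and at 297, 214 and 231 CPM in CIC::DUX4 replicates 1 to 3. All fusion libraries were far above all controls, and the mean rose from 0.811 ± 0.353 to 247 ± 44.0 CPM (± SD over 3 libraries here and below). ETV1 rose from 3.17 ± 1.22 to 34.8 ± 6.98 CPM (log2 fold change 3.53, SE 0.26, adjusted p = 7.47e-06). The SPRED proteins, which hold back RAS activation of RAF, rose together. SPRED1 went from 10.3 ± 0.188 to 46.7 ± 11.4 CPM, SPRED2 from 23.4 ± 1.67 to 103 ± 15.4 CPM and SPRED3 from 2.11 ± 0.307 to 36.4 ± 11.9 CPM. Sprouty genes were unequal. SPRY4 had no count in any empty vector library and 63.8, 44.4 and 37.3 CPM with CIC::DUX4, SPRY2 rose 2.44-fold, and SPRY1 was 25.9 ± 2.53 CPM without and 23.5 ± 1.73 CPM with the fusion (log2 fold change -0.13, SE 0.11, adjusted p = 0.565). IL17RD and DUSP5 were not called either.

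In the list of dual-specificity phosphatases, which holds those that inactivate MAP kinases and atypical members, 6 of 21 rose (28.6%, median 0.03). DUSP6, specific for ERK, stood at 0.343, 1.29 and 0.321 CPM in empty vector and at 36.4, 27.3 and 29.4 CPM with CIC::DUX4. DUSP4 rose 19.5-fold, from 6.62 ± 0.554 to 129 ± 25.7 CPM, and DUSP10 rose 4.10-fold. DUSP8, DUSP7 and DUSP16 rose by 0.61, 0.54 and 0.32 on the log2 scale. The rise was thus spread over phosphatases of ERK and of the stress kinases, with the ERK phosphatase genes DUSP4 and DUSP6 the furthest from empty vector. Protein tyrosine phosphatases rose in 6 of 31 cases (19.4%) and 1 fell. PTPN1, which dephosphorylates the insulin receptor, rose from 113 ± 4.83 to 215 ± 29.6 CPM, and PTPN9 from 46.5 ± 0.664 to 91.8 ± 7.03 CPM. PTPN18 was called lower at -0.35 on the log2 scale and lost the call in 4 of the 6 fits with a library left out.

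In the RAS, RAF, MEK and ERK list, 2 of 26 members were called higher (7.69%, median 0.03), close to the 6.96% over all genes tested. RPS6KA2, a kinase downstream of ERK, rose 1.49-fold. GRB2, an adaptor upstream of RAS, was 186 ± 5.56 CPM without and 180 ± 8.35 CPM with the fusion. Of the adaptors that couple receptors to this cascade, 6 of 29 were called higher (20.7%) and 1 lower. SHC3 stood at 0.458, 0.146 and 0.200 CPM in empty vector and at 50.6, 33.8 and 36.7 CPM with CIC::DUX4, a 150-fold rise of the mean. SHC4 rose from 0.253 ± 0.241 to 39.4 ± 5.37 CPM. Both are SHC family members known from neural tissue, and they were near 0 in empty vector. The widely expressed SHC1 was 48.5 ± 5.99 without and 51.4 ± 4.17 CPM with the fusion (adjusted p = 0.703), and SHC2 was 15.1 ± 0.747 and 14.9 ± 1.92 CPM. DOK5 and DOK7, docking proteins of receptor kinases, rose 9.22-fold and 7.24-fold, and SH2B2 and IRS2 by 0.95 and 0.53 on the log2 scale. IRS4, the insulin receptor substrate that 293T cells express at a high level, fell from 1310 ± 67.6 to 992 ± 68.3 CPM (log2 fold change -0.40, SE 0.09, adjusted p = 0.0142), a call lost in 3 of the 6 fits with a library left out.

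Receptor tyrosine kinases rose in 8 of 47 cases (17%, median -0.00) and fell in 1. Beside those described here, NTRK3 and EPHA5 were called higher. EPHB3, an ephrin receptor, stood at 6.75, 5.09 and 5.13 CPM in empty vector and at 58.6, 40.9 and 45.05 CPM with CIC::DUX4. EPHA2 stood at 27.0, 30.2 and 29.5 CPM against 108, 93.8 and 93.4 CPM, with no overlap (log2 fold change 1.76, SE 0.18, adjusted p = 0.000229). DDR2, a collagen receptor, rose 2.13-fold and its relative DDR1 fell from 47.2 ± 2.65 to 33.7 ± 1.66 CPM. MET, the receptor of hepatocyte growth factor, rose 1.65-fold, EPHA4 1.64-fold and FGFR3 1.33-fold. EGFR was 18.98 ± 2.29 CPM without and 15.4 ± 1.41 CPM with the fusion (adjusted p = 0.28) and FGFR1 was not called. SRMS, a SRC-related kinase, had no count in the empty vector libraries and 11.7, 9.25 and 11.1 CPM with CIC::DUX4, at least 84.2-fold higher than 3 counts would give.

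Several growth factor ligands rose, some from levels near 0. Among the FGF ligands 3 of 12 were called higher: FGF7 and FGF1, which had no count in empty vector and reached 1.94 ± 0.839 and 1.12 ± 0.387 CPM, and FGF18, which rose from 0.440 ± 0.217 to 3.66 ± 0.742 CPM. FGF2, the FGF ligand with the highest CPM in the list, was 16.2 ± 1.49 without and 16.9 ± 1.88 CPM with the fusion. Of 18 genes for ligands of the PDGF, VEGF, HGF, IGF and angiopoietin groups, 5 were higher (27.8%). KITLG, the ligand of KIT, stood at 20.6, 22.9 and 21.7 CPM in empty vector and at 89.8, 68.7 and 65.2 CPM with CIC::DUX4. ANGPT2 rose 13.6-fold and ANGPT1 6.50-fold, while IGF1 had no count without the fusion and reached 2.11 ± 0.522 CPM. VEGFA was 54.2 ± 4.57 and 57.7 ± 3.25 CPM. These 3 FGF and 5 other ligands were called in every fit that left out 1 library. HBEGF, an EGF receptor ligand, rose 1.84-fold.

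Ligands of the TGF-beta superfamily were called higher in 6 of 23 cases (26.1%, median 0.06), and the number was 6 in each fit with a library left out. INHBA, a subunit of activin A, stood at 0.114, 0.351 and 0.120 CPM in empty vector and at 8.43, 8.29 and 4.82 CPM with CIC::DUX4. TGFB3 rose from 4.32 ± 0.344 to 15.8 ± 2.14 CPM, BMP5 from 0.116 ± 0.117 to 2.24 ± 0.350 CPM and BMP3 from 1.20 ± 0.421 to 4.47 ± 0.428 CPM. BMP6 and BMP7 rose 1.75-fold and 1.46-fold. LTBP4, which holds latent TGF-beta in the matrix, rose 1.55-fold, whereas ID2, a BMP target, fell from 139 ± 5.79 to 108 ± 7.59 CPM. Of 23 WNT ligands and frizzled receptors, 4 were called higher (17.4%) and 1 lower, with 34.8% of fitted changes positive (median -0.11). Of 20 WNT antagonists and feedback targets, 3 were called higher (15%) and 1 lower. In these lists WNT4 rose 3.68-fold, WNT9A 2.32-fold and WNT5A 1.53-fold. The secreted antagonist FRZB rose 18.9-fold (0.347 ± 0.156 to 6.57 ± 1.39 CPM), and the receptor FZD10 fell to 0.639 of its empty vector mean. DTX1, a regulator of NOTCH signalling, rose 28.5-fold from 0.621 ± 0.210 to 17.7 ± 2.50 CPM, but only 2 of 26 genes of the NOTCH list were called higher. GLI3 and PTCH1 of the hedgehog pathway rose 1.91-fold and 1.498-fold, and the other 11 tested members of that list were not called.

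AP-1 factors, which pair as FOS, JUN, ATF and MAF proteins, were called higher more often than lower. In this list 6 of 18 were called higher (33.3%) and 2 lower. With a library left out, at most 1 was called lower. FOSL1 stood at 1.26, 0.820 and 1.08 CPM in empty vector and at 13.7, 12.03 and 13.4 CPM with CIC::DUX4. MAFF, a small MAF protein whose promoter window held an octamer, rose 9.99-fold, FOSB 4.09-fold, FOS 2.96-fold and ATF3 1.78-fold, and MAFG rose by 0.38 on the log2 scale. JUND fell from 178 ± 1.85 to 150 ± 19.4 CPM, but it was not called in 5 of the 6 fits with a library left out, and JUN was 413 ± 42.4 and 324 ± 27.9 CPM (adjusted p = 0.0532). Other early response genes moved less: NR4A1 rose 1.55-fold, NR4A3 1.99-fold and ARC 1.89-fold, and EGR1 was 3.00 ± 0.602 and 2.89 ± 0.840 CPM. Targets of the Hippo pathway factors YAP and TEAD were called higher in 7 of 23 cases (30.4%, median 0.30). ANKRD1 stood at 0.401, 0.468 and 0.321 CPM in empty vector and at 8.85, 8.53 and 6.29 CPM with CIC::DUX4, MYOF rose 7.98-fold, and CCN1 and CCN2 rose 2.46-fold and 2.41-fold.

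Collagens rose more often than any other list of 40 or more tested members, with 16 of 40 called higher (40%, median 0.25) and 1 lower. Without CIC::DUX4 replicate 1 the number was 10, and 3 of the 16 were at 3 counts or fewer in each empty vector library. COL12A1, a collagen that decorates fibrils, stood at 1.20, 0.996 and 1.28 CPM in empty vector and at 21.2, 16.3 and 14.2 CPM with CIC::DUX4 (log2 fold change 3.91, SE 0.25, adjusted p = 1.2e-10). COL14A1, its close relative, rose from 6.30 ± 0.885 to 39.4 ± 9.65 CPM, and COL5A3 from 0.155 ± 0.0637 to 5.41 ± 1.99 CPM. COL11A1 rose 3.22-fold and COL5A1 1.32-fold. Some of the collagens of basement membrane and bone were not called. COL4A1 was 43.4 ± 2.87 and 41.0 ± 1.30 CPM, COL4A2 104 ± 11.2 and 88.2 ± 3.89 CPM (adjusted p = 0.0602), and COL1A1 33.5 ± 2.03 and 29.9 ± 4.63 CPM. COL2A1, the cartilage collagen, fell from 60.9 ± 2.79 to 47.1 ± 4.92 CPM, a call lost in 2 of the 6 fits with a library left out.

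Other matrix genes also moved both ways. Of 35 proteoglycan and matricellular genes 8 were called higher (22.9%, and 5 without CIC::DUX4 replicate 1) and 2 lower. VCAN, which encodes versican, stood at 85.1, 98.6 and 86.0 CPM in empty vector and at 298, 238 and 231 CPM with CIC::DUX4, well apart. FBN1, the fibrillin of elastic microfibrils, rose 2.21-fold, and SPP1, osteopontin, rose from 0.121 ± 0.0559 to 2.29 ± 0.446 CPM. The cell surface proteoglycan SDC1 fell from 21.9 ± 2.79 to 15.1 ± 2.09 CPM and FN1, fibronectin, from 63.8 ± 6.38 to 49.5 ± 3.50 CPM, calls lost in 2 and 5 of the 6 fits with a library left out. Laminin LAMA1 rose 2.50-fold, from 38.9 ± 1.45 to 97.1 ± 20.4 CPM. ITGA11, a collagen-binding integrin, stood at 0.229, 0.556 and 0.721 CPM in empty vector and at 11.9, 8.001 and 6.29 CPM with CIC::DUX4, and ITGAV and ITGA6 rose 1.64-fold and 1.41-fold. Among 47 tested metalloproteinases and inhibitors, 7 rose and ADAMTS5, a proteoglycan-cleaving enzyme, fell from 11.7 ± 1.01 to 7.26 ± 0.286 CPM. ADAMTSL1 rose 15.6-fold, ADAMTS6 2.59-fold and ADAM12 4.75-fold. Of the mesenchymal and EMT list, TGFBI and LOXL1 were called higher, FN1 and SNAI2 lower, and TWIST1 and ZEB1 were not called.

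Several genes of epithelia appeared from near 0. KRT20, a keratin of intestinal and urothelial epithelium, was without a count in the empty vector libraries and stood at 17.4, 11.2 and 10.8 CPM with CIC::DUX4, at least 104-fold higher. AP1M2, the clathrin adaptor subunit of polarised epithelia, stood at 0.0572, 0 and 0.321 CPM in empty vector and at 93.1, 60.5 and 64.3 CPM with CIC::DUX4, a 577-fold rise of the mean. S100A16 rose 131-fold from 0.141 ± 0.128 to 18.6 ± 4.25 CPM. Of the mucin and CEACAM list, MUC5AC, a gel-forming mucin, stood at 0.114, 0 and 0 CPM in empty vector and 13.4, 9.58 and 8.65 CPM with the fusion. MUC16 and MUC6 had no count in empty vector and reached 2.87 ± 0.827 and 1.67 ± 0.242 CPM. Of 7 tested genes of epithelial sodium and acid-sensing channels, 3 sodium channel subunits were called higher (42.9%) and 4 genes were not called. SCNN1B stood at 13.6 ± 3.76 CPM with CIC::DUX4 (at least 107-fold higher) and SCNN1G at 1.97 ± 0.668 CPM (at least 15.5-fold). SCNN1A stood at 4.01, 0.383 and 0.882 CPM with CIC::DUX4, and replicate 1 holds most of the rise. Its call was lost in 1 fit with a library left out.

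Most other genes of epithelia were below the filter or not called. Of 151 keratin and keratin-associated genes, 141 were below the filter, and their summed level was 0.509 CPM without the fusion and 4.03 CPM with it. KRT8, which 293T cells express, stood at 9.50, 9.25 and 11.6 CPM in empty vector and at 36.9, 19.3 and 18.6 CPM with CIC::DUX4, a call lost in 2 of the 6 fits with a library left out, and its partner KRT18 was 62.5 ± 0.566 and 65.3 ± 6.94 CPM (adjusted p = 0.745). Of 19 claudin and tight junction genes, CLDN1 rose 1.86-fold and MARVELD3 2.16-fold. Desmosomal genes DSG2, DSP and DSC3, whose products anchor keratin filaments at cell contacts, were called lower. DSG2 fell from 331 ± 11.3 to 276 ± 16.5 CPM, DSP from 247 ± 24.1 to 202 ± 9.92 CPM and DSC3 from 91.7 ± 8.93 to 75.6 ± 4.52 CPM. Without CIC::DUX4 replicate 1 none of them was called. Among cadherins and protocadherins with neural expression, CDH4 rose 26.0-fold from 1.03 ± 0.124 to 26.8 ± 6.65 CPM and PCDH9 rose 2.42-fold.

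**Figure D4:**
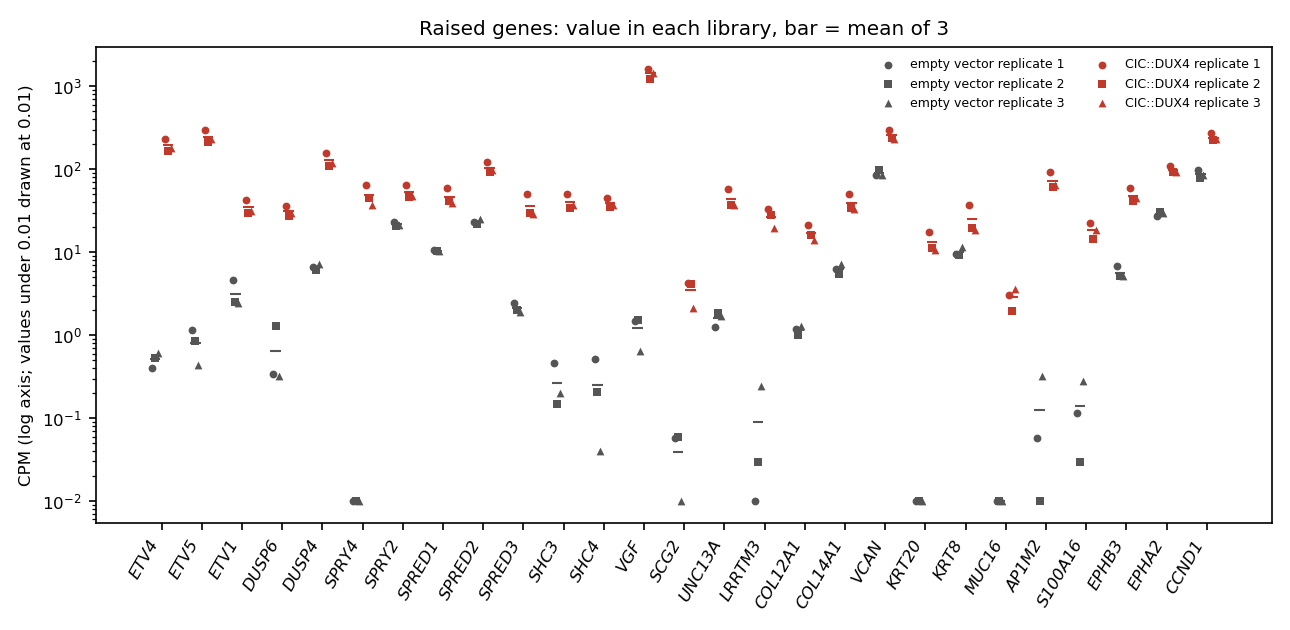
CPM (log axis, values under 0.01 drawn at 0.01) of 27 raised genes in each of the 3 empty vector libraries (grey) and 3 CIC::DUX4 libraries (red), with replicates 1, 2 and 3 as circles, squares and triangles and bars at the group means. No red point overlaps a grey point of its gene, as in 1200 of the 1224 genes called higher. VGF stands between 1211 and 1631 CPM with CIC::DUX4, and the red circle of replicate 1 is often the highest.

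Genes of regulated secretion held the largest increase in absolute level. VGF, a granin-like precursor of secreted neuropeptides (chr7:101162509-101165593 in GENCODE 29), stood at 1.49, 1.52 and 0.641 CPM in empty vector and at 1631, 1211 and 1449 CPM with CIC::DUX4. Its mean rose 1175-fold, to 1430 ± 210.4 CPM (log2 fold change 10.18, SE 0.45, adjusted p = 1.62e-05). SCG2, a granin of the same granules, stood at 0.0572, 0.0586 and 0 CPM against 4.27, 4.17 and 2.12 CPM. SCG3 rose 10.2-fold to 2.53 ± 1.77 CPM, with 4.58 CPM in replicate 1 and 1.49 and 1.53 CPM in the others, and CHGA, chromogranin A, rose 2.38-fold, a call lost in 3 of the 6 fits with a library left out. CADPS2, which primes granules for release, rose from 28.0 ± 1.35 to 70.2 ± 6.42 CPM. In all, 7 of 15 tested granule proteins and convertases were called higher (46.7%, median 0.93). INSM1, a transcription factor of neuroendocrine cells, fell from 12.4 ± 1.83 to 7.90 ± 0.814 CPM and the convertase inhibitor PCSK1N was 74.7 ± 9.05 and 72.3 ± 0.831 CPM. Of the neuropeptide list, NTS, neurotensin, rose 6.80-fold.

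Genes of synapses and excitability differed between lists in the share called higher. Among 39 genes of synaptic vesicle release, 2 were called higher (5.13%, median 0.15), and both encode MUNC13 priming factors: UNC13A rose from 1.60 ± 0.303 to 44.1 ± 12.5 CPM and UNC13B from 82.0 ± 3.68 to 161 ± 24.98 CPM. LRRTM3, a synaptic adhesion protein, stood at 0, 0.0293 and 0.240 CPM in empty vector and at 32.9, 27.7 and 19.3 CPM with CIC::DUX4. NPTX2, a neuronal pentraxin, rose 1.74-fold. Of 57 neurotransmitter receptors, 6 were called higher (10.5%), 4 of them with 3 counts or fewer in each empty vector library. The number was 3 when CIC::DUX4 replicate 1, empty vector replicate 2 or empty vector replicate 3 was left out, and 3 with limma-trend. CHRM5, a muscarinic receptor, reached 4.82 ± 1.15 CPM, at least 38.1-fold higher, and the glutamate receptor GRIK3 rose 4.61-fold. Potassium channels were called higher in 12 of 58 cases (20.7%, median 0.15), with 8 without CIC::DUX4 replicate 1. KCNG1 rose from 41.2 ± 1.96 to 68.8 ± 4.46 CPM, KCNJ12 1.502-fold and KCNIP1 8.96-fold, and KCNJ8 fell to 0.729 of its mean. The calcium channel subunits CACNG4 and CACNA1C rose 11.3-fold and 3.24-fold.

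The neurofilament genes NEFM and NEFL, which 293T cells express, were called lower. NEFM stood at 656, 482 and 564 CPM in empty vector and at 346, 358 and 378 CPM with CIC::DUX4 (log2 fold change -0.65, SE 0.13, adjusted p = 0.014), a call lost in 3 of the 6 fits with a library left out. NEFL stood at 199, 185 and 208 CPM against 135, 145 and 149 CPM (log2 fold change -0.47, SE 0.07, adjusted p = 1.51e-05) and kept its call in all 6. In the list of 27 neuronal cytoskeleton genes these 2 and TUBB2B were called lower, while DCX and MAP2 were called higher from levels under 1 CPM. INA, another neuronal filament gene, was 20.2 CPM in both groups and was not called.

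Transporters were called higher in 24 of 265 solute carrier genes (9.06%, median -0.03), 8 of them with 3 counts or fewer in each empty vector library. SLC44A2, a choline transporter, rose 1.99-fold and SLC7A8, an amino acid transporter, 2.06-fold. Both chains of the LAT1 amino acid transporter rose by a like amount, SLC7A5 from 370 ± 21.1 to 459 ± 21.3 CPM and SLC3A2 from 205 ± 5.15 to 255 ± 15.7 CPM, and the other 9 genes of the amino acid transporter list were not called. SLC1A6, a glutamate transporter, and the anion transporter SLC26A9 appeared from near 0. ABCB11, the bile salt export pump of hepatocytes, had no count in empty vector and 6.94, 4.12 and 5.06 CPM with CIC::DUX4. SLC2A1, the main glucose transporter, was called lower at 103 ± 5.21 against 82.5 ± 11.4 CPM, a call lost in 4 of the 6 fits with a library left out. Among cytochrome P450 genes CYP1A1 rose 2.72-fold and CYP1B1 fell from 16.6 ± 3.48 to 8.73 ± 2.17 CPM. Both are known targets of the aryl hydrocarbon receptor.

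The list with the largest share of members called lower, among those of 10 or more tested, was the HOX clusters, which encode transcription factors of positional identity. Of 37 tested HOX genes 8 were called lower (21.6%), and the fitted change was positive in 6 (16.2%), against 49.7% of all genes tested. The positive share was 44.2% for genes at 10 to 100 CPM in empty vector and 33.0% above 100 CPM. It was also low in other lists, such as cytosolic ribosomal proteins (13.3%), hypoxia targets (17.9%) and G2 and M phase genes (20.5%). No HOX gene was called higher with edgeR, DESeq2 or limma-trend, and 1 was higher at an unadjusted p under 0.05. The median was -0.20 on the log2 scale and stayed between -0.22 and -0.20 under the 3 other scalings. HOXA13 stood at 57.0, 51.1 and 54.6 CPM in empty vector and at 32.2, 40.3 and 38.3 CPM with CIC::DUX4 (log2 fold change -0.55, SE 0.10, adjusted p = 0.000389). HOXB9 stood at 164, 174 and 172 CPM against 116, 133 and 136 CPM, and HOXA10 at 119, 122 and 128 CPM against 97.4, 96.7 and 95.8 CPM. In each of these genes all fusion libraries lay below all controls. HOXA11, HOXC4, HOXC10, HOXB13 and HOXD8 were also called lower, at -0.54 to -0.34 on the log2 scale. HOXD13, the HOX gene with the highest CPM, was 191 ± 3.58 and 183 ± 2.31 CPM and was not called. The number called lower was 4 without CIC::DUX4 replicate 1, and 5 each without CIC::DUX4 replicate 2, empty vector replicate 1 or empty vector replicate 3.

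Other developmental regulators fell by similar small amounts. GATA4, GATA6, TBX3 and ZIC2 were 4 of 22 tested genes of the GATA, T-box and ZIC list (18.2%), with log2 fold changes of -0.29 to -0.26. GATA6 stood at 80.6, 80.6 and 91.9 CPM in empty vector and at 65.2, 70.9 and 72.0 CPM with CIC::DUX4. Without CIC::DUX4 replicate 1, and without empty vector replicate 3, none of the 4 was called, and without empty vector replicate 2 only 1 was. GATA3 was called higher, at 41.3 ± 0.595 against 57.7 ± 9.84 CPM, and GATA2 was 84.8 ± 3.91 and 82.4 ± 7.199 CPM. In the list of 86 NKX, LHX, POU and other homeobox genes, CDX2, EN2, PITX1 and NKX2-3 were called lower and 6 were called higher, among them GBX2 (5.47 ± 0.0956 to 19.3 ± 2.83 CPM) and TLX3 (3.67 ± 0.776 to 11.01 ± 0.530 CPM). NKX2-3 was 4.14 ± 0.981 against 2.17 ± 0.1002 CPM and lost its call in 5 of the 6 fits with a library left out.

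**Figure D5:**
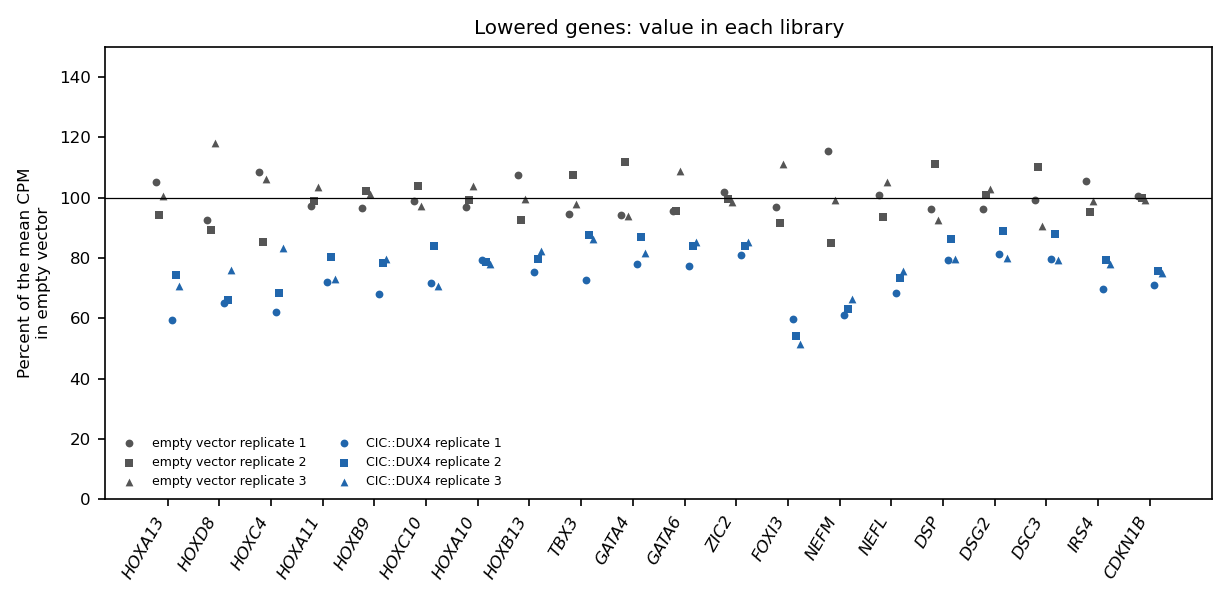
Level of 20 lowered genes in each library as a percent of the mean CPM in empty vector (vertical axis, from 0), grey for empty vector and blue for CIC::DUX4, with replicates 1, 2 and 3 as circles, squares and triangles. All blue points lie below 100, and below every grey point of the same gene, as the groups lay apart in 223 of the 224 genes called lower.

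Forkhead factors split between close relatives. FOXC2, a regulator of mesenchyme and lymphatic vessels, stood at 1.83, 1.79 and 1.52 CPM in empty vector and at 50.9, 37.6 and 38.1 CPM with CIC::DUX4. Its paralogue FOXC1 fell from 366 ± 7.47 to 306 ± 33.2 CPM, a call lost in 2 of the 6 fits with a library left out. FOXL1, a neighbour of FOXC2 in the genome, rose 4.04-fold, FOXI3 fell from 9.03 ± 0.918 to 4.98 ± 0.394 CPM and FOXF2 from 101 ± 7.79 to 79.97 ± 8.84 CPM. FOXF2 was not called without CIC::DUX4 replicate 1, and neither FOXI3 nor FOXF2 without empty vector replicate 3. ETS factors outside the ETV1, ETV4 and ETV5 group were called higher in 4 of 16 cases, and in 2 without CIC::DUX4 replicate 1. SPI1, the PU.1 factor of blood cells, stood at 0.229, 0.205 and 0 CPM against 6.45, 3.93 and 4.94 CPM, and FLI1, the ETS gene of Ewing sarcoma fusions, rose from 9.23 ± 1.32 to 24.98 ± 3.92 CPM. ETV6 and ETS1 rose 1.63-fold and 1.44-fold. Further lineage factors called higher were PAX8, EYA1 (3.30-fold), OLIG2 (2.12-fold), RXRG (3.997-fold) and HNF4A, which reached 1.42 ± 0.672 CPM. Zinc finger genes named ZNF, by contrast, were called higher in 15 of 449 cases (3.34%), and in 7 without CIC::DUX4 replicate 1 and 8 without empty vector replicate 3. ZNF608 rose 2.51-fold and ZNF423 2.60-fold.

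Cell cycle genes were called mainly in the G1 list. Of 27 G1 cyclins, CDKs and inhibitors, 6 were called higher (22.2%, median -0.08) and 1 lower. CCND1, cyclin D1, stood at 97.4, 79.2 and 84.5 CPM in empty vector and at 271, 222 and 229 CPM with CIC::DUX4 (log2 fold change 1.47, SE 0.15, adjusted p = 0.000197). CCNE1 and CCND3 rose 1.54-fold and 1.37-fold, and CDKN1B, the p27 inhibitor of cyclin-dependent kinases, fell from 58.9 ± 0.341 to 43.6 ± 1.47 CPM (log2 fold change -0.44, SE 0.09, adjusted p = 0.00126). The inhibitors CDKN2D and CDKN2B rose too, 2.50-fold and 1.49-fold. CCND2 and CDK4 were not called. POLE stood at 228, 250 and 235 CPM in empty vector and at 532, 444 and 433 CPM with CIC::DUX4. With CDT1 (1.21-fold) and CHAF1A (1.19-fold) it made up the 3 of 44 replication genes called higher (6.82%), of which 1 was called without CIC::DUX4 replicate 1. MCM2 was 512 ± 20.5 and 486 ± 25.6 CPM. Of 44 G2 and M phase genes 1 was higher and 1 lower. Of 12 genes of the MYC family and its partners, MYCN rose 3.78-fold from 0.699 ± 0.282 CPM, MXD1 1.86-fold and MYCL 1.39-fold, and MYC was 198 ± 9.33 and 184 ± 10.7 CPM. BCL2, an inhibitor of apoptosis, rose 2.37-fold, the single call among 17 tested BCL2 family genes. PLK3 rose 4.38-fold, while the p53 targets CDKN1A and MDM2 were not called.

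Oncofetal genes rose in 7 of 14 cases (50%, median 0.20), and in 4 without CIC::DUX4 replicate 1. The changes were small in genes that 293T cells express. IGF2BP3 rose from 80.6 ± 1.74 to 106 ± 7.60 CPM, LIN28B 1.25-fold and HMGA2 1.20-fold, and HMGA1 was 663 ± 30.4 and 651 ± 31.4 CPM. H19 and IGF2, neighbouring imprinted genes, rose 3.77-fold and 3.42-fold from 0.378 ± 0.228 and 0.523 ± 0.206 CPM. Histone genes, whose transcripts mostly lack polyA tails and are poorly sampled in polyA libraries, were called higher in 7 of 35 cases, among them H2BC12 (1.55-fold) and H2BC11 (2.99-fold). ATXN1, which encodes a protein partner of CIC, rose 1.78-fold, and the corepressor gene TLE4 rose 1.29-fold. EP300, a coactivator that DUX4 recruits, was 182 ± 20.2 and 173 ± 10.6 CPM.

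Shares called in the stress and metabolic lists lay on both sides of those over all genes. In the lists of endoplasmic reticulum stress (1 of 26 called higher), integrated stress response (3 of 27), p53 targets (3 of 29), NF-kappa B targets (1 of 18) and cytosolic heat shock proteins (3 of 68 higher, 2 lower) the shares were 3.85% to 11.1% higher. HSPA5, the main chaperone of the endoplasmic reticulum, was 564 ± 10.4 and 527 ± 5.43 CPM, and ATF4 599 ± 16.6 and 575 ± 17.4 CPM. HMOX1, heme oxygenase 1, fell from 48.7 ± 6.34 to 32.5 ± 5.94 CPM. NDRG1, a hypoxia target, stood at 140, 147 and 143 CPM in empty vector and at 91.9, 110 and 111 CPM with CIC::DUX4, and of the 28 tested hypoxia targets 3 were called lower (10.7%) and 2 higher (7.14%). In the glycolysis list of 21 genes 2 were called higher and 2 lower (9.52% each, median -0.09), and 23.8% of its fitted changes were positive. PFKP, a phosphofructokinase, rose 1.42-fold and its relative PFKM was called lower at -0.22 on the log2 scale. Without CIC::DUX4 replicate 1 no hypoxia target was called higher and 1 lower, and 1 glycolysis gene was called higher and none lower.

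Genes of protein synthesis and respiration gave the fewest calls. Of 83 cytosolic ribosomal protein genes and 76 mitochondrial ones, none was called in either direction with edgeR. At an unadjusted p under 0.05, 2 and 2 were higher and 8 and 3 lower, DESeq2 called none in either list, and limma-trend called 1 cytosolic gene lower. Without CIC::DUX4 replicate 3, 3 cytosolic and 1 mitochondrial gene were called lower. Proteasome subunits gave no call among 44 with edgeR, DESeq2 or limma-trend, with 1 higher and 1 lower at an unadjusted p under 0.05. Of 79 nuclear-encoded genes of oxidative phosphorylation, 1 was called lower (1.27%, median -0.04), and none or 3 in the fits with a library left out. The 13 protein genes of the mitochondrial genome all had a positive fitted change (median 0.48), as the share of mitochondrial counts above also shows. MT-ND2 alone was called, at 864 ± 96.9 against 1276 ± 51.2 CPM. Without 1 library at a time, 1 to 5 of the 13 were called higher.

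Noncoding RNAs with LINC names were called higher in 23 of 264 cases (8.71%, median 0.15), 14 of them with 3 counts or fewer in each empty vector library. LINC01206 had no count in empty vector and reached 4.34 ± 1.27 CPM. Antisense RNAs named after a gene on the other strand could be paired with that gene in 554 cases. In 24 pairs the antisense RNA was called higher, and in 7 of these the gene was too (29.2%, against 8.66% of the genes in all pairs). ATXN1-AS1 rose with ATXN1, GBX2-AS1 with GBX2 and NHSL1-AS1 with NHSL1. FOXC2-AS1 rose with FOXC2, but only from 0 to 0.406 CPM, so that it carries the filter effect described above. IRS4-AS1 fell with IRS4. The libraries keep strand, but the use of strand in counting is not given in the sources used here, so reads of the 2 partners cannot be told apart. The same holds for ENSG00000274021, an antisense RNA on chromosome 12 with no count in empty vector and 63.6, 41.5 and 45.2 CPM with CIC::DUX4. Host genes of microRNAs and small nucleolar RNAs were called higher in 9 of 56 cases (16.1%), but in 4 when empty vector replicate 2 was left out and in 5 for empty vector replicate 3. They include SNHG12, which rose 1.97-fold.

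Families not foreseen in the lists were counted by symbol stem, the letters before the first digit. Of 211 stems with 10 or more tested genes, 41 had at least 2 times the overall share of genes called higher and 76 had no gene called higher. The highest shares were those of KRT (7 of 14), COL (17 of 41, 41.5%), BMP (4 of 10, 40%), KCNJ (4 of 11, 36.4%), ARID and EPHA (3 of 10 each), UNC (4 of 14, 28.6%) and PCDH (3 of 11, 27.3%). Of the genes called higher, 5 of the 7 KRT, 3 of the 17 COL, 2 of the 4 KCNJ and 1 of the 4 UNC genes carry the filter effect, with 3 counts or fewer in each empty vector library. Of 480 genes with the stem ZNF, 15 were called higher (3.12%), and of 154 with the stem RPL, pseudogenes included, 1 (0.649%). HOXA had the largest share called lower, 3 of 13 genes (23.1%), followed by ZCCHC with 2 of 13 (15.4%).

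Large decreases were few. HSPB8 stood at 1.43, 2.78 and 2.89 CPM in empty vector and at 0.687, 0.767 and 1.41 CPM with CIC::DUX4 (log2 fold change -1.35, SE 0.42, adjusted p = 0.0459), a call lost in 4 of the 6 fits with a library left out. CA8, a carbonic anhydrase-related protein gene, fell from 39.3 ± 2.36 to 24.0 ± 3.80 CPM (log2 fold change -0.71, SE 0.12, adjusted p = 0.000133) and kept its call in all 6. PPP2R2C fell from 4.49 ± 0.299 to 2.46 ± 0.709 CPM and ELFN2 from 4.91 ± 0.648 to 2.93 ± 0.493 CPM, and both lost their calls in 5 of the 6. The median level in empty vector was 62.9 CPM among genes called lower, 4.86 CPM among genes called higher and 16.9 CPM over all genes tested. The summed CPM of the genes called higher went from 34175 to 52895.

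Some calls named above without their stability depended on single libraries. With each library left out in turn, the call was lost in 1 of the 6 fits for CDKN2B, CLDN1, ETS1, FGFR3, LIN28B, SNAI2 and TUBB2B. It was lost in 2 for ADAM12, ARC, CDT1, CHAF1A, COL5A1, DSG2, ETV6, FZD10, H19, IRS2 and MAFG, and in 3 for CCN2, CDX2, GATA6, GBX2-AS1, HOXC10, INSM1, MAP2, MXD1 and TBX3. It was lost in 4 for DSC3, DSP, DUSP16, EN2, EPHA5, GATA3, GATA4, HOXB13, HOXC4, HOXD8, KCNJ8 and MYCL, in 5 for IRS4-AS1, LOXL1 and PITX1, and in all 6 for NTRK3 and ZIC2. Except for FGFR3 and GBX2-AS1, each of these was lost without CIC::DUX4 replicate 1. List counts of 4 or fewer moved with them: without that library 1 gene each of the MYC, NOTCH, claudin, EMT and integrated stress response lists was called higher, and no homeobox gene and none of the solute carriers was called lower.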

How the data were processed

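RNA sequencing of 9 polyA libraries of 293T cells gave the data. A table of raw counts by Ensembl gene was deposited by the authors, with a table of log2 CPM, here checked to equal log2 CPM computed from the counts (15711 matched genes, largest difference 4.97e-14). The submitters' processing notes name STAR 2.7.10b, R 4.2.2, edgeR 3.40.2 and GRCh38, and their settings, the annotation and the use of strand are not given in the sources used here. Libraries held 16970771 to 33655445 counts. Floors and intervals cover counting error only.

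Counts of the 3 groups of 3 entered edgeR 4.0.16, run in R 4.3.3 (filterByExpr, TMM scaling, robust quasi-likelihood fit on all 9 libraries, Benjamini-Hochberg over 17576 genes, called at adjusted p under 0.05; coefficient of variation 10.1%). CPM are TMM-scaled, and folds are ratios of mean CPM. A fold against a group with 3 counts or fewer in each library is a lower bound from 3 counts per library. The labels say replicates were transfected on separate days, and nothing else about their independence. The p-values set a difference of group means against the spread within groups of these 9 libraries, CIC::NUTM1 included, and cover these samples only. No library pair agreed within sampling noise (chi-square per degree of freedom 5.98 to 8.99).

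Symbols matched 62622 of 62700 IDs, and types, positions and overlaps came from GENCODE 29 (GRCh38). Lists given by symbol pattern leave out pseudogenes, except lists of noncoding RNAs. The comparison and the 98 lists were chosen with earlier results of these data known. Genes were named by rule: over all genes, the 15 that rose and 10 that fell most among called genes with 50 counts and no overlap; in each list, up to 5 and 3 called members with 20 counts, up to 3 uncalled members of highest CPM, and members with a defining role. Further members, named to complete a family, were chosen after their values were seen. Genes that overlap others, or close paralogues, may share reads. Alternatives were other scalings, filters, DESeq2 1.42.0, limma-trend (limma 3.58.1) on the deposited log2 CPM, the 6 libraries alone, a replicate block, and each library left out. On simulated counts for this comparison with 200 of 16521 genes changed, edgeR recovered 98.5% (6.64% of calls false), DESeq2 95.0% (8.21%) and limma-trend 98.5% (5.74%). The accuracy of the calls made on the deposited counts was not tested. Figures were drawn with matplotlib 3.10.9. Some members of the lists are counted but not reported here by name.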

Additional observations from a re-analysis of the deposited data

How the results depend on the processing

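The number of genes called higher was 1224 and lay between 1141 and 1453 under the other scalings, DESeq2, limma-trend, no filter, the 6 libraries alone and the replicate block. It was 774 when every library had to hold at least 10 counts, a filter that tests 14571 genes, and 805 to 1258 with 1 library left out. The number called lower was 224 and lay between 187 and 279, except that it was 380 with no filter, 407 when only the 6 libraries were fitted and 60 to 229 with 1 library left out (60 when CIC::DUX4 replicate 1 was left out, 75 for empty vector replicate 3 and 137 for empty vector replicate 2). The cause was not tested. Scalings moved the median over all genes by at most 0.015 on the log2 scale. With the replicate block, 1222 genes were higher and 250 lower, 1175 and 215 of them shared with the fit without it. The deviations of same-numbered libraries correlated at -0.0308, 0.0348 and 0.0456, so the numbers were not treated as a pairing. Of the genes that the naming rule admits or the text adds, 74 of 311 called higher and 66 of 88 called lower lost the call in at least 1 of the 6 fits with a library left out, and none reversed direction while called. Floors of 0.0878 to 0.172 CPM in the empty vector libraries limit folds of genes absent without the fusion.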
